A study of Mus musculus with 8 samples.

Results

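The 9 genes described here belong to the biology of Alzheimer disease: the amyloid precursor family (App, Aplp1 and Aplp2), the enzymes that cut its proteins (Psen2, Bace1 and Adam10), tau (Mapt) and 2 apolipoproteins (Apoe and Clu). They were chosen by name from a table of 34299 genes, and all 9 were found and passed the filter on low counts in every comparison. The libraries are bulk RNA-seq of polyadenylated RNA from whole mouse brain. There were 3 wild-type (WT) fetal brains at gestation day 15, 3 fetal brains of the same day in which Cav1, which encodes the caveolar coat protein caveolin 1, was knocked out (KO), and 2 Cav1 KO brains at week 70. The labels name no strain, sex or litter and do not say how the knockout was made. The fetal samples are labelled as biological replicates. For the 2 week 70 samples no label says so, but their sex-linked counts differ as between a female and a male (7969 and 4 counts of Xist, 0 and 2219 Y-linked counts), so that they are separate animals. Week 70 brains of WT mice, which the design text places in an earlier study, were not analysed here, so that age could be compared only within the knockout.

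The App protein is cut by either of 2 routes. ADAM10, an alpha-secretase, cuts within the amyloid peptide and precludes its release, whereas BACE1, the beta-secretase, makes the cut at its start, after which gamma-secretase, which can hold presenilin 2 as its catalytic subunit, frees the peptide. Aplp1 and Aplp2 are relatives of App that are shed by many of the same enzymes but hold no amyloid peptide. Tau stabilises axonal microtubules. In the adult brain apolipoprotein E, a lipid carrier secreted mainly by astrocytes, and clusterin, a secreted chaperone encoded by Clu, bind the amyloid peptide. In people, variants at APOE, CLU, APP, PSEN2 and ADAM10 have been linked to the disease.

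Promoter windows are shown for the 3 members of the amyloid precursor family, which moved together between all 3 groups, and for Apoe, which had the highest level at week 70. They come from RefSeq on GRCm38.p6, which holds windows for 6 of the 9 genes (App, Aplp1, Aplp2, Psen2, Adam10 and Apoe), and run 5′ to 3′ over the 250 bases before the start. The App window, chr16:85173767-85173957 on the minus strand, is shown without its last 59 bases, which GENCODE annotates as exon. The Aplp1 window is chr7:30445583-30445832, the Aplp2 window chr9:31211849-31212098 and the Apoe window, the first of 3 listed, chr7:19699189-19699438, all on the minus strand. Capitals mark each GC box, searched as GGGCGG on both strands.
App: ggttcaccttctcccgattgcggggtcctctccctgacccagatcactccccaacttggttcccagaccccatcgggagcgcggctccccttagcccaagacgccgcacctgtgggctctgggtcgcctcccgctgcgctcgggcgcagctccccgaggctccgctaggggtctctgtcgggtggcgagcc
Aplp1: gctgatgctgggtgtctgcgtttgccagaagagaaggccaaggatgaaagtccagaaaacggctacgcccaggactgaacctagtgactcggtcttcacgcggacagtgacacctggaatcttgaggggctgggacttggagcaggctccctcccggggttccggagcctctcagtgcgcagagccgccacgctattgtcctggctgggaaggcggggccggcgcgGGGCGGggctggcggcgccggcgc
Aplp2: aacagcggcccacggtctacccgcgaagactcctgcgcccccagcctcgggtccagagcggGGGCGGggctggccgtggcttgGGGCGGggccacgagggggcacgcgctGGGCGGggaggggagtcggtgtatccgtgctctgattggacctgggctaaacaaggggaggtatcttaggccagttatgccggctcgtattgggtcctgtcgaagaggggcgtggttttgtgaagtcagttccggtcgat
Apoe: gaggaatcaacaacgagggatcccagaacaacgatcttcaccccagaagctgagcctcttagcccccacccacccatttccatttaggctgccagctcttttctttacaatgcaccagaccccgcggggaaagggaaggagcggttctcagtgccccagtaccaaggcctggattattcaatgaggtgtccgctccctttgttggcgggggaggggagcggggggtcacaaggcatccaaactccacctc
Over the full 250 bases, the 3 family windows were rich in G and C, at 70.8% for App, 66% for Aplp1 and 66.4% for Aplp2, against a median of 52.4% over all 32851 windows. They held 23, 20 and 22 CpG dinucleotides, where the median window held 6. The Apoe window stood nearer the median, at 57.2% and 8 CpG. A GC box occurred once in App (in the part not shown), once in Aplp1, 3 times in Aplp2 and not in Apoe, and 32.7% of all windows hold at least 1. None of these 4 windows held TATAAA on either strand, which 12.4% of all windows do and the second Apoe window does with 2 matches, and CCAAT was found only in Aplp2, with 2 matches, against 33.8% of all windows. These matches describe the letters and are not evidence of binding.

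Total counts ranged from 14110031 to 20833397 per library, and every KO day 15 library was shallower than every WT library. Cav1 itself had 218 to 367 counts in the WT libraries and at most 5 in any KO library. The groups also differed in composition. Mitochondrially encoded genes took 1.26 to 1.35% of counts in WT day 15, 3.3 to 3.87% in KO day 15 and 4.41 to 5.43% at week 70. WT replicate 1 stood apart in markers of meningeal fibroblasts, which summed to 4420 normalised CPM there, to 299 and 506 in the other WT libraries, to 63.7 to 134 in KO day 15 and to 85.4 and 105 at week 70. At week 70, choroid plexus markers summed to 73.6 CPM in replicate 1 and 2410 in replicate 2. The sex-linked counts of all 6 fetal libraries and of week 70 replicate 1 were those of females, so that sex differs within the week 70 pair and between its replicate 2 and every fetal library. Processed pseudogenes, which are near-copies of other genes, took 3.55 to 3.69% of counts in WT day 15, 6.15 to 6.49% in KO day 15 and 0.306% in each week 70 library. No source used here says whether the 2 ages were aligned and counted in the same way. No batch, date or litter is recorded, so that genotype, age and the way the libraries were made and counted cannot be told apart. Fold changes in these libraries also vary with transcript length and GC content. Each difference below was therefore also computed with both smoothed out. The corrected result is given for a named gene where its call changes or its printed log2 fold change moves by more than 1.5 times. In bulk samples fewer cells of a type and less RNA per cell cannot be told apart.

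Levels are given in CPM, the read count divided by library size and scaled by TMM over all 8 libraries. Differences are log2 fold changes from edgeR's quasi-likelihood test, with p-values adjusted by Benjamini-Hochberg over all tested genes and a threshold of 0.05. Between KO and WT at day 15, 8 of the 9 genes fell and 1, Psen2, was not called. None rose. Over all 19147 tested genes 62.6% were called, 30.1% higher and 32.5% lower. The same 8 genes had no overlap of CPM between the genotypes, which held for 68.3% of all tested genes. From KO day 15 to KO week 70, 7 of the 9 rose, 0 fell, and Adam10 and Mapt were not called, where 82% of 20000 tested genes were called, 37.6% higher and 44.4% lower. All but Mapt had no overlap between the ages, which held for 87.9% of tested genes. Between KO week 70 and WT day 15, where genotype and age differ together, 6 were higher, 2 lower and 1 not called, against 78.6% of 19465 tested genes called, 36.7% higher and 41.9% lower. All but Bace1 had no overlap there, which held for 86.4% of tested genes. After the length and GC correction the same 8 genes were called lower at day 15, where 24.4% of all tested genes were called lower and 24.8% higher. With age 8 were then called higher and 1, Mapt, lower, where 39.7% were called higher and 39.3% lower. The genes' median log2 fold changes were -1.00, 2.62 and 1.67 in these 3 comparisons, beside 0.03, -0.19 and -0.16 for all tested genes.

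**Figure D1:**
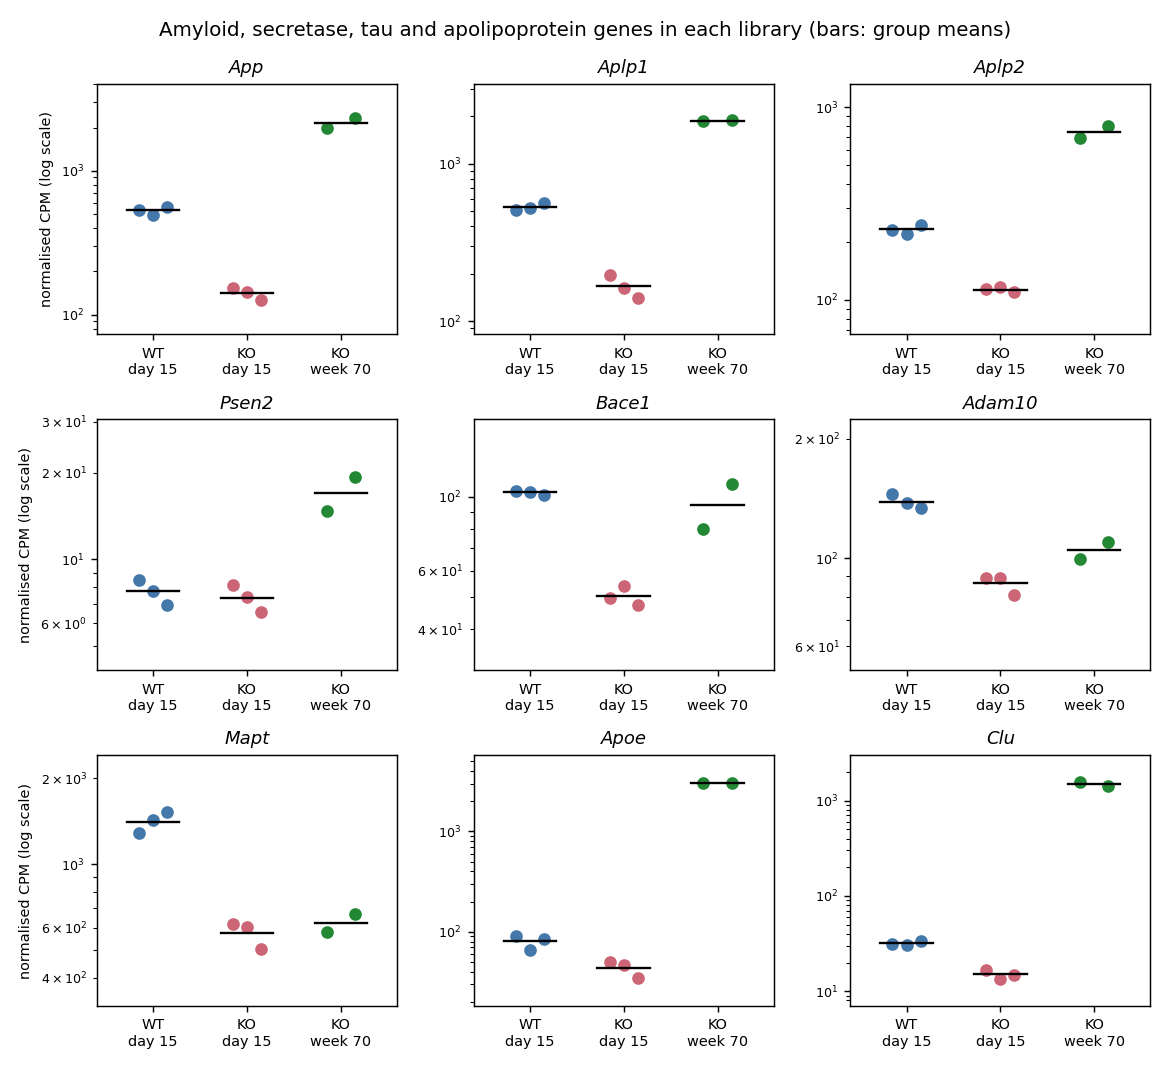
Normalised CPM (log scale, a different range in each panel) of the 9 genes in each library, with WT day 15 in blue, KO day 15 in red, KO week 70 in green and a bar at each group mean. KO day 15 lies below WT day 15 without overlap in every panel but Psen2, and the week 70 mean lies near that of KO day 15 for Mapt (624 CPM) and far above both fetal groups for Apoe (3030 CPM).

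App, the precursor of the amyloid peptide, showed the largest fall of the 9 genes at day 15. Its level was 532, 494 and 564 CPM in WT replicates 1 to 3, 153, 143 and 127 CPM in KO day 15 and 2000 and 2330 CPM at week 70. No library of any group overlapped with another group: KO day 15 was lowest, WT day 15 between, and week 70 highest. The group means were 530 ± 35.1 CPM in WT and 141 ± 12.7 CPM in KO day 15 (SD, n = 3 each). The log2 fold change was -1.87 (edgeR SE 0.0782, adjusted p 2.93e-08), which is 3.66-fold lower and at the 1.92 percentile of the log2 fold changes of all tested genes. With age in the KO it rose 14.3-fold (log2 fold change 3.84, edgeR SE 0.116, adjusted p 5.35e-10), and week 70 KO stood 4.04-fold above WT day 15 (edgeR adjusted p 1.29e-06).

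Aplp1, a family member found mainly in neurons, followed App. It was at 510, 524 and 562 CPM in WT day 15, at 197, 162 and 141 CPM in KO day 15 and at 1880 and 1890 CPM at week 70, again with no overlap between any groups. At day 15 it fell 3.11-fold (log2 fold change -1.64, edgeR SE 0.105, adjusted p 3.54e-07). The length and GC correction reduced this to -0.98 (edgeR adjusted p 4.43e-06). The Aplp1 transcript has the highest GC content of the 9 genes, at 60.2%. With age it rose 10.6-fold (log2 fold change 3.40, edgeR SE 0.132, adjusted p 2.96e-09), or 5.49-fold after correction, and at week 70 it was 3.51-fold above WT day 15 (edgeR adjusted p 6.97e-07).

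Aplp2, which is expressed in many tissues beside brain, changed in the same directions by less. It stood at 232, 221 and 245 CPM in WT day 15, at 114, 116 and 110 CPM in KO day 15 and at 694 and 803 CPM at week 70. These groups did not overlap either. The day 15 log2 fold change was -1.00 (edgeR SE 0.0602, adjusted p 2.39e-07) and that of age 2.62 (edgeR SE 0.0943, adjusted p 1.73e-09), a 6.16-fold rise. Week 70 stood 3.19-fold above WT day 15 (edgeR adjusted p 1.91e-06).

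Because the 3 genes fell by different amounts, the make-up of the family's counts shifted, as can be read within each library with no scaling between libraries, though not free of length and GC content. The share of App in the counts of the 3 genes was 41.8, 39.9 and 41.1% in the WT libraries, 32.9, 34.1 and 33.6% in their KO counterparts of day 15, and 43.7 and 46.4% at week 70. Aplp2 moved the opposite way, at 18.2, 17.8 and 17.9%, then 24.6, 27.5 and 29.1%, then 15.2 and 16%. The share of Aplp1 overlapped between all groups, from 37.2 to 42.5%. After correction the day 15 changes of Aplp1 (-0.98) and Aplp2 (-0.84) lay close together and that of App (-1.46) stood below both, so that the shift between Aplp1 and Aplp2 depends on the processing. The App and Aplp2 shares did not overlap between any groups, but 3 libraries against 3 or 2 cannot reach a p under 0.05, and the two-sided exact permutation p was 0.1 for both in each comparison, the smallest it can give.

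Bace1, the beta-secretase gene, was at 104, 103 and 101 CPM in WT day 15 and at 49.6, 53.8 and 47.2 CPM in KO day 15, so that the genotypes did not overlap. Its log2 fold change was -0.99 (edgeR SE 0.0612, adjusted p 2.75e-07), a 1.99-fold fall that the length and GC correction brought to -0.35 (edgeR adjusted p 5.55e-04). The week 70 libraries lay far apart, at 80 and 109 CPM, both above KO day 15 and on either side of WT. With age Bace1 rose 1.75-fold (log2 fold change 0.81, edgeR SE 0.126, adjusted p 1.49e-04), or 1.32-fold after correction. Against WT day 15 the week 70 difference was -0.14 with a 95% interval from -0.42 to 0.15 (edgeR adjusted p 0.318). Without week 70 replicate 2 it was -0.38 and called (edgeR adjusted p 0.00228), and without replicate 1 it was 0.07. The annotation places 15.4% of the exonic bases of Bace1 opposite exons of Rnf214, and without a known strand setting reads there cannot be assigned to either.

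Adam10, the alpha-secretase gene, had the smallest called fall of the 9 genes at day 15 before correction, and after it the third largest. It was at 145, 138 and 134 CPM in WT, 89.4, 89.2 and 80.8 CPM in KO day 15, and 99.5 and 110 CPM at week 70, with no overlap between groups. The day 15 log2 fold change was -0.65 (edgeR SE 0.0586, adjusted p 4.43e-06), 1.56-fold lower. Its transcript has the lowest GC content of the 9, at 42.1%, and here the correction made the difference larger (-0.94). By age the difference of 0.18 was not called (edgeR adjusted p 0.0919, 95% interval -0.02 to 0.38). It was called at 0.70 after correction (edgeR adjusted p 6.17e-05), at 0.28 with all 8 libraries in the fit (edgeR adjusted p 0.00647) and at 0.26 without week 70 replicate 1 (edgeR adjusted p 0.0354). Week 70 KO remained below WT day 15, by 1.34-fold (log2 fold change -0.42, edgeR adjusted p 0.00114).

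The ratio of beta- to alpha-secretase counts within a library differed between the groups. Per Adam10 count, WT day 15 held 0.717, 0.748 and 0.753 counts of Bace1, KO day 15 0.555, 0.603 and 0.584, and week 70 0.804 and 0.99. KO day 15 was lowest and week 70 highest without overlap (two-sided exact permutation p 0.1 in each comparison, the smallest possible). The transcripts differ in GC content, at 50% for Bace1 and 42.1% for Adam10, and the correction turned the order of the changes: at day 15 the corrected fall was smaller for Bace1 (-0.35) than for Adam10 (-0.94), and with age the corrected rise was smaller for Bace1 (0.40) than for Adam10 (0.70). Counts of App per Adam10 count were 3.68, 3.57 and 4.2 in WT day 15, 1.71, 1.61 and 1.58 in KO of the same day, and 20.1 and 21.2 at week 70, also without overlap.

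Psen2, the gene for presenilin 2, was the scarcest of the 9 and did not separate the genotypes. It was at 8.51, 7.79 and 6.94 CPM in WT day 15, from 182, 156 and 138 counts, and at 8.13, 7.4 and 6.55 CPM in KO day 15. The log2 fold change was -0.04 with a 95% interval from -0.35 to 0.28 (edgeR adjusted p 0.839). At week 70 it was at 14.7 and 19.3 CPM, above every fetal library, a 2.16-fold rise over KO day 15 (log2 fold change 1.11, edgeR SE 0.179, adjusted p 2.01e-04) and 1.59-fold after correction.

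Mapt, which encodes tau, was the most abundant of the 9 genes per transcript length in both fetal groups and with age its direction depended on the processing. It was at 1290, 1430 and 1520 CPM in WT day 15, 617, 603 and 506 CPM in KO day 15, and 577 and 670 CPM at week 70. WT stood apart above the others, and the 2 KO ages overlapped. At day 15 it fell 2.39-fold (log2 fold change -1.26, edgeR SE 0.0886, adjusted p 7.03e-07), and by 1.44-fold after correction (-0.52, edgeR adjusted p 3.84e-04). The age difference within KO was 0.02 (95% interval -0.23 to 0.27, edgeR adjusted p 0.89). After the correction it was -0.60 and called lower (edgeR adjusted p 1.75e-04), and with upper-quartile scaling -0.23 (edgeR adjusted p 0.0702). Week 70 KO stood 2.29-fold below WT day 15 (log2 fold change -1.19, edgeR adjusted p 3.19e-05). Per App count, WT day 15 held 2.42, 2.9 and 2.69 counts of Mapt, KO day 15 4.05, 4.21 and 3.97, and week 70 0.289 and 0.288 (two-sided exact permutation p 0.1 in each comparison, the smallest possible).

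**Figure D2:**
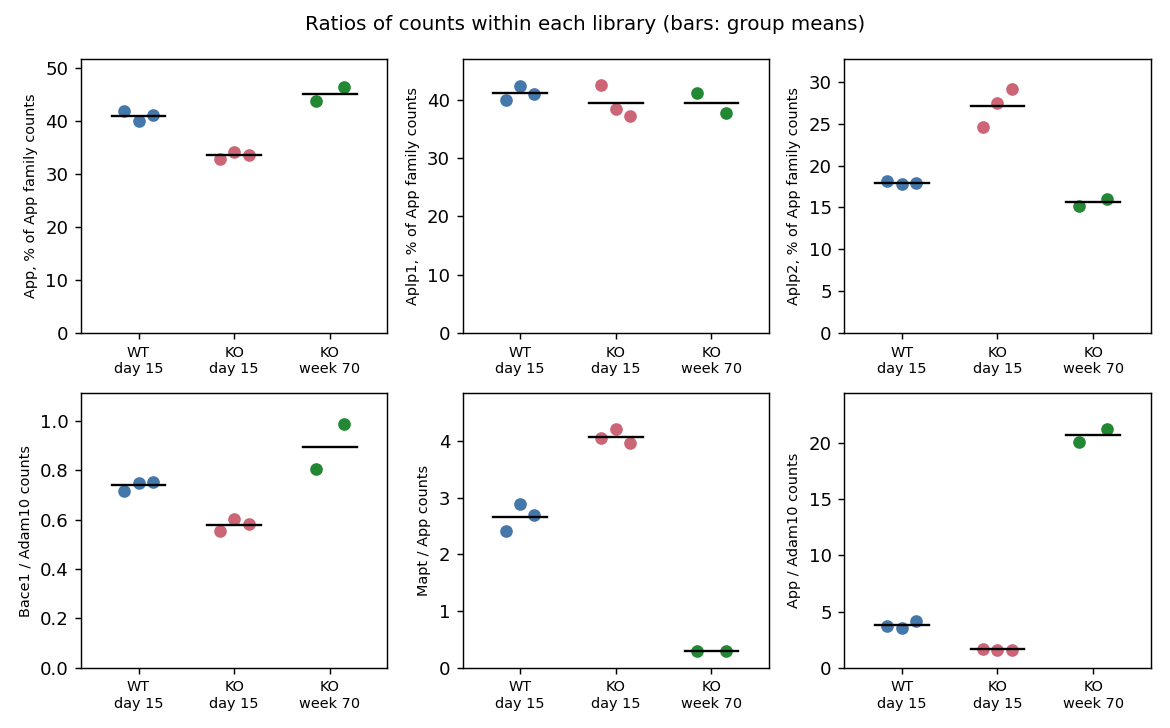
Ratios of counts within each library, on axes that start at 0: the share of App, Aplp1 and Aplp2 in their summed counts, Bace1 per Adam10, Mapt per App, and App per Adam10, with a point for each library and a bar at each group mean. The App share is lowest in KO day 15 (32.9 to 34.1%), the Aplp1 share overlaps between groups, and Mapt per App falls to 0.288 and 0.289 at week 70.

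Apoe, for the main lipid carrier of brain, had the highest level of the 9 genes at week 70. It was at 90.8, 65.9 and 84.9 CPM in WT day 15, 49.7, 46.4 and 34.4 CPM in KO day 15, and 3010 and 3060 CPM at week 70, and no groups overlapped. In counts, the week 70 libraries held 45566 and 44328 reads against 593 to 834 in KO day 15. The day 15 fall was 1.8-fold (log2 fold change -0.85, edgeR SE 0.136, adjusted p 3.04e-04), with the largest SE of the 8 called genes. Without WT replicate 1, the library with the high meningeal markers, it was -0.78 (edgeR adjusted p 4.51e-04), and the same 8 genes were called. With age in the KO Apoe rose 65.1-fold (log2 fold change 6.02, edgeR SE 0.157, adjusted p 2.2e-10), or 43.3-fold after correction, and it stood 37.3-fold above WT day 15 (edgeR adjusted p 1.45e-07).

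Clu, for clusterin, moved in the same directions. It was at 31.4, 30.5 and 33.4 CPM in WT day 15, 16.6, 13.4 and 14.9 CPM in KO day 15, and 1570 and 1430 CPM at week 70, with no overlap. It fell 2.07-fold at day 15 (log2 fold change -1.05, edgeR SE 0.0957, adjusted p 4.64e-06). Its 93.7-fold rise with age was the largest of the 9 genes (log2 fold change 6.55, edgeR SE 0.122, adjusted p 6.59e-11), at the 99.5 percentile of all tested genes, and was 70.1-fold after correction. Against WT day 15 the week 70 level was 46.8-fold higher (edgeR adjusted p 2.81e-08). The choroid plexus markers, which differed between the week 70 libraries (73.6 and 2410 CPM), summed to 383 to 492 CPM in WT day 15 and 348 to 435 CPM in KO day 15. Ttr alone made up most of these fetal sums, with means of 350 CPM in WT and 327 CPM in KO day 15. Of the 7 markers 3 fell at day 15 and 0 rose (median -0.40, or -0.56 with 5 falls after correction). Among the falls were Clic6 (-2.49) and Aqp1 (-2.19). The part of these markers in the levels of Apoe and Clu was not tested.

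Markers of the cells that make these proteins moved as well, and their part in the results was not tested. Summed over 8 markers, the astrocyte list was at 510 to 591 CPM in WT day 15, 245 to 260 CPM in KO day 15 and 8230 to 8940 CPM at week 70. At day 15, 5 of the 8 fell, among them the glutamate transporter genes Slc1a2 and Slc1a3 (log2 fold changes of -1.04 and -0.97), while the water channel gene Aqp4 rose (0.68, not called after correction at 0.38, edgeR adjusted p 0.167). The 8 microglia markers summed to 61.5 to 91.4, 43.9 to 46.8 and 516 to 646 CPM in the same order. At day 15, 4 of them fell, P2ry12 rose (0.67, not called after correction, edgeR adjusted p 0.493) and 3 were not called. After correction 3 were called lower and 0 higher. Tmem119, at 6.52 ± 7.49 CPM in WT (SD, n = 3), was called lower only before correction (edgeR adjusted p 0.0574 after it). The 8 mature neuron markers summed to 669 to 786 CPM in WT day 15, 563 to 589 CPM in KO day 15 and 13300 to 14600 CPM at week 70. The 7 immature neuron markers summed to 5770 to 6350, 4390 to 4430 and 1090 to 1130 CPM. At day 15, 4 mature markers fell (median -0.57, or -0.00 with 2 falls after correction). Snap25 rose (0.47, not called after correction, edgeR adjusted p 0.219). Of the immature markers 4 fell and 2 rose (median -0.52, or -0.33 after correction, again with 4 falls and 2 rises). The 8 oligodendrocyte markers went from 82.9 to 94.9 CPM and 79.9 to 87.4 CPM in the fetal groups to 13700 to 13900 CPM at week 70. No marker of the astrocyte, microglia, mature neuron or immature neuron lists was at or under 3 counts in all libraries of a group. Of the oligodendrocyte list only Opalin was, in WT day 15. Erythroid markers summed to 1030 to 1310 CPM in WT and 3600 to 4420 CPM in KO day 15, where 6 of 8 rose (median log2 fold change 1.42), and to 492 to 779 CPM at week 70. Endothelial markers were at 174 to 241, 55.7 to 70.5 and 300 to 329 CPM, and 6 of 7 fell at day 15 (median -1.37). Of the 7 meningeal fibroblast markers 5 fell at day 15 (median -2.19, or -1.20 with 4 falls after correction). Radial progenitor markers summed to 1280 to 1350, 1120 to 1220 and 243 to 251 CPM in WT day 15, KO day 15 and KO week 70. The near-equal fetal sums hid opposite changes: 6 of the 7 fell (median -0.70, or -0.91 with 5 falls after correction). Among them were Nes (-2.40, or -1.42 after correction) and Vim (-1.41), while Fabp7 rose (1.52, or 0.76 after correction). Likewise the pericyte and smooth muscle markers summed to 128 to 167, 125 to 136 and 182 to 190 CPM. But at day 15 4 of the 6 tested fell (median -1.59, or -0.94 with 3 falls after correction). Among them was Pdgfrb (-2.07, or -1.17 after correction), while Rgs5 rose (0.62, not called after correction, edgeR adjusted p 0.121). With haemoglobin and mitochondrially encoded genes removed, 8 of the 9 genes were called lower at day 15, from -1.85 for App to -0.62 for Adam10.

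**Figure D3:**
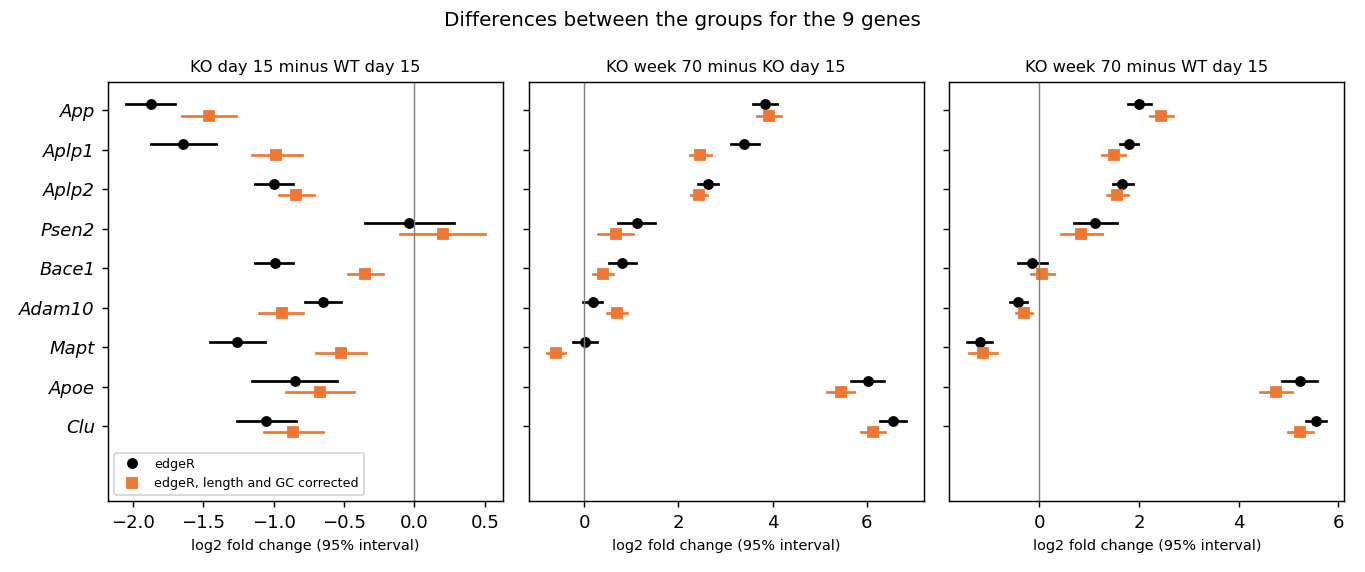
Log2 fold changes of the 9 genes in each of the 3 comparisons with 95% intervals, as fitted by edgeR (black circles) and after correction for transcript length and GC content (orange squares), on a separate horizontal scale in each panel. At day 15 all genes but Psen2 lie below 0 in both fits, and with age Mapt moves from 0.02 to -0.60 and Adam10 from 0.18 to 0.70 on correction.

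Compared per kilobase of transcript, the order of the 9 genes differed between the groups. In WT day 15 Mapt (269 CPM per kb) and Aplp1 (227) stood above App (64.9), Aplp2 (64) and Apoe (57.2), then came Adam10 (30.3), Clu (17.5) and Bace1 (17), with Psen2 last (3.84). The means of App, Aplp2 and Apoe differed from their neighbours by less than the SD of one of the pair, as did those of Clu and Bace1. In KO day 15 App (17.3 CPM per kb) stood below Aplp2 (31.2), Apoe (30.9) and Adam10 (18.8), while Mapt (110) and Aplp1 (71.1) were again on top. Here the means of App and Adam10, Aplp2 and Apoe, and Bace1 (8.29) and Clu (8.27) differed by less than the SD of one of the pair. Within each KO day 15 library, though, App was below Adam10 (18.7, 17.5 and 15.6 against 19.5, 19.4 and 17.6 CPM per kb). Psen2 was last (3.64). At week 70 Apoe led with 2150 CPM per kb, followed by Clu (830) and Aplp1 (804), then App (265), Aplp2 (206), Mapt (119), Adam10 (22.8), Bace1 (15.6) and Psen2 (8.42), of which Clu and Aplp1 did not differ beyond their spread. Transcript lengths came from the longest principal transcript of each gene in the annotation. That of App, at 8167 bases, was the longest of the 9, and so was its merged exon length, at 12996 bases. The place of App in these orders depends on the length taken, and a shorter App transcript, which would raise it, was not tried. With merged exon lengths Aplp1 (625 CPM per kb) stood above Clu (437) at week 70, and Clu (9.24) below Bace1 (16.2) in WT day 15. In KO day 15 they put App (10.9) below Adam10 (17.6) and Clu (4.35) below Bace1 (7.91).

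The pattern of each gene over the 8 libraries was set beside those of 12794 other genes by Pearson's r of log2 CPM, as a description, since the libraries fall into 3 groups that fix most of it. The closest pattern to App was that of Hid1 (r = 0.9996), to Aplp1 that of Retreg2 (0.9991), and to Aplp2 that of Cyfip2 (0.9990). For Bace1 it was Mia3 (0.9973), for Adam10 Zfp395 (0.9975), for Psen2 Nub1 (0.9955) and for Mapt Wdr82 (0.9986). Apoe was closest to Mpv17l2 (0.9993) and Clu to Slc17a7, a vesicular glutamate transporter of neurons (0.9999). Such patterns were common for some genes and rare for others: 527 genes had r over 0.99 with Clu and 288 with App, but 10 with Bace1 and 1 with Psen2.

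The other genes of these pathways were taken from 6 lists with 113 genes, of which 106 were tested at day 15 and 109 for age. At day 15, 68 of them fell and 16 rose, beside 32.5% and 30.1% of all tested genes. After the length and GC correction 42 fell and 24 rose, beside 24.4% and 24.8% of all tested genes, so that the share that rose was near that of all genes. With age in the KO 80 rose and 13 fell, beside 37.6% and 44.4% of all tested genes. After correction 71 rose and 16 fell, beside 39.7% and 39.3% of all tested genes.

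Among 9 other secretase genes, 6 fell and 0 rose at day 15, with a median log2 fold change of -0.45 (-0.21 after correction, with 4 falls). The largest fall was that of Ncstn, the gamma-secretase subunit nicastrin, from 97.7 ± 5.46 to 55.9 ± 1.85 CPM (SD, n = 3 each, log2 fold change -0.77, or -0.49 after correction, edgeR adjusted p 1.1e-06). Among the others Aph1a (-0.45) and Bace2 (-0.75), named after their values were seen, were not called after correction (-0.05 and -0.38, edgeR adjusted p 0.743 and 0.307). The 3 not called were the gamma-secretase subunit genes Aph1b, Aph1c and Psenen, of which Aph1b and Aph1c are close paralogs with uncertain values. With age 7 of the 9 rose. Psenen, for a subunit needed for the activity of gamma-secretase, rose from counts of 44, 73 and 35 in KO day 15 to 896 and 774 at week 70 (log2 fold change 4.16, or 5.29 after correction, edgeR adjusted p 1.52e-08). U2af1l4 covers 9.33% of its exonic bases on the opposite strand. The only fall was that of Adam17, another alpha-secretase gene (-1.06, edgeR adjusted p 1.65e-05).

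Of 25 genes for App adaptors and trafficking, 19 fell and 3 rose at day 15 (median -0.60, or -0.14 with 11 falls and 5 rises after correction). Lrp10, a lipoprotein receptor relative that binds App, fell most, from 41.8 ± 1.35 to 12.1 ± 3.21 CPM (SD, n = 3 each, log2 fold change -1.75, edgeR adjusted p 3.47e-06), and its difference was -0.79 after correction. Gm10366 covers 10.6% of the exonic bases of Lrp10 on the opposite strand. The 3 that rose, which were named after their values were seen except for Vps29, were Vps29 (1.02), Vps35 (0.75) and Vps26a (0.34), the core subunits of retromer, the coat that carries cargo back from endosomes. After correction they were at 0.50, 0.29 and -0.25, the last then called lower (edgeR adjusted p 0.00446). With age 20 of the 25 rose and 0 fell, though after correction 3, named after their values were seen, were called lower: Apbb3 (-0.71), Gga3 (-0.70) and Apba3 (-0.34). The largest rise was that of Itm2c, a BRI family gene whose product binds App, from 51.6 ± 6.26 to 1080 ± 6.45 CPM (SD, n = 3 and 2, log2 fold change 4.28, edgeR adjusted p 2.44e-10).

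Of 8 genes for peptidases that degrade the amyloid peptide, 5 fell and 2 rose at day 15 (median -0.93, or -0.45 after correction). Ece1, for an endothelin-converting enzyme, fell from 40.5 ± 5.37 to 15.3 ± 0.587 CPM (SD, n = 3 each, log2 fold change -1.36, edgeR adjusted p 1.16e-06). It was at -0.54 after correction. The other falls, named after their values were seen, were Ace (-1.23), Ctsd (-1.07), Ctsb (-1.03, or -0.61 after correction) and Thop1 (-0.83), of which Ace (-0.36, edgeR adjusted p 0.0881) and Thop1 (0 to 2 decimals, edgeR adjusted p 0.962) were not called after correction. Ide, for insulin-degrading enzyme, rose from 51.1 ± 2.28 to 70.2 ± 1.63 CPM (log2 fold change 0.50, edgeR adjusted p 2.14e-05), as did Ece2 (0.48, or 0.79 after correction), named after its value was seen. With age 7 of the 8 rose (6 after correction), led by the lysosomal protease gene Ctsb (3.61, edgeR adjusted p 6.43e-10), and Ece2 fell (-2.52, edgeR adjusted p 3.42e-06). The values of Ece2 are uncertain, since 57.5% of its exonic bases are shared with another gene model on the same strand, as are in part those of Ctsd (34.4% shared on the same strand) and Ctsb (12.8% opposite Fdft1).

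Among 23 genes for tau kinases and phosphatases, 18 fell and 2 rose at day 15 (median -0.50, or -0.23 with 13 falls and 4 rises after correction). Cdk5r2, for the neuronal CDK5 activator p39, fell from 1732, 1922 and 2328 counts in WT to 434, 385 and 290 in KO day 15, a log2 fold change of -2.15 (edgeR adjusted p 1.1e-06) that was -1.06 after correction. Among those that rose was Cdk5, a tau kinase gene (0.34, edgeR adjusted p 3.44e-04), named after its value was seen. With age 16 rose and 3 fell (median 0.70, or 0.32 with 13 rises and 4 falls after correction). Cdk5r2 rose most, to 13743 and 9885 counts (5.11, or 3.78 after correction, edgeR adjusted p 1.52e-09). Before correction the falls were Csnk1e, a casein kinase gene (-1.06, or -1.82 after correction, edgeR adjusted p 1.55e-06), and, named after their values were seen, Mark3 (-0.67) and Ttbk2 (-0.54), both not called after correction (edgeR adjusted p 0.253 and 0.166). Ttbk2 shares 29.9% of its exonic bases with Cdan1 on the same strand and is uncertain.

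Of the 20 genes for lipoproteins, their receptors and transporters, 16 were tested at day 15, where 10 fell and 1 rose (median -0.30). After correction the median turned to 0.12, with 5 falls and 7 rises. Pltp, for phospholipid transfer protein, fell from 22.6 ± 5.42 to 4.98 ± 1.01 CPM (SD, n = 3 each, log2 fold change -2.14, edgeR adjusted p 4.5e-06), with 19.3% of its exonic bases opposite Ctsa. The rise was that of Apoa1, named after its value was seen, with 3, 5 and 9 WT counts against 13, 10 and 27 KO counts (log2 fold change 1.82, edgeR adjusted p 0.0132). With age 11 of 18 tested rose and 3 fell (median 0.55, or 0.19 with 8 rises and 4 falls after correction). Lcat, for an enzyme that esterifies lipoprotein cholesterol, rose from counts of 27, 28 and 19 in KO day 15 to 566 and 457 at week 70 (log2 fold change 4.48, edgeR adjusted p 5.49e-09). Lrp8, an apolipoprotein E and reelin receptor, fell from 295 ± 8.1 to 80.3 ± 15.5 CPM (SD, n = 3 and 2, log2 fold change -1.98, edgeR adjusted p 9.63e-08). The other falls, named after their values were seen, were Apom (-1.95) and Vldlr (-0.37), the latter not called after correction (edgeR adjusted p 0.406).

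The 28 genes named for other risk loci did not share a direction at day 15: of 25 tested, 10 fell, 8 rose and 7 were not called, with a median of -0.03 (0.05 after correction, with 6 falls and 6 rises). Rin3, for a guanine nucleotide exchange factor of endocytosis, fell from counts of 194, 93 and 96 in WT to 26, 28 and 31 in KO day 15 (log2 fold change -1.87, edgeR adjusted p 1.92e-04), and was at -0.91 after correction. Tyrobp, for the adaptor of the microglial receptor TREM2, rose from 1.92 ± 0.148 to 5.4 ± 0.545 CPM (SD, n = 3 each, log2 fold change 1.53, edgeR adjusted p 4.06e-05). Trem2 itself was not called (0.37, edgeR adjusted p 0.224) but was after correction (0.95, edgeR adjusted p 0.0101). The summed microglia markers were lower in KO, as given above, though of the 8 only 4 fell, 1 rose and 3 were not called. With age 19 of 26 tested rose and 5 fell (19 and 3 after correction). Ptk2b, for a calcium-sensitive tyrosine kinase, rose from counts of 27, 27 and 29 in KO day 15 to 7884 and 8540 at week 70 (log2 fold change 8.33, edgeR adjusted p 4.15e-11). The largest fall was that of Zcwpw1, for a histone reader (-1.21, edgeR adjusted p 3.94e-04), and the others, named after their values were seen, were Cd2ap (-1.17), Sppl2a (-0.88), Picalm (-0.52) and Celf1 (-0.38). Of these Cd2ap, Sppl2a and Picalm were not called after correction (edgeR adjusted p 0.0581, 0.246 and 0.728).

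**Figure D4:**
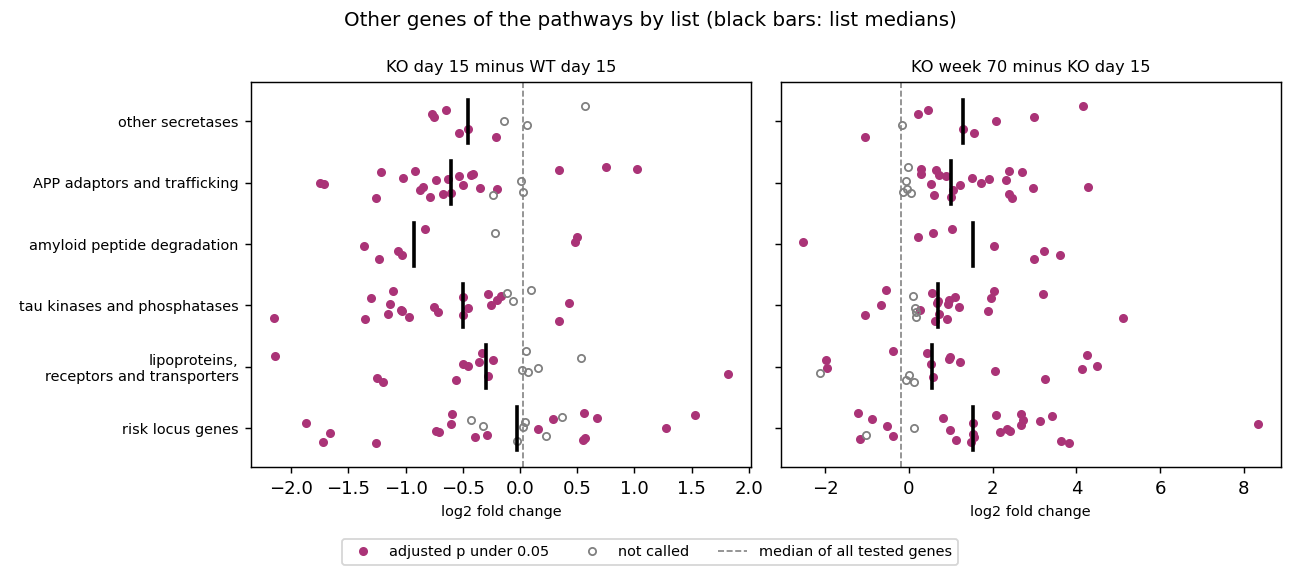
Log2 fold changes of the tested genes of the 6 pathway lists at day 15 (KO minus WT, left) and with age in KO (right), filled where the adjusted p is under 0.05, with black bars at list medians and a dashed line at the median of all tested genes. At day 15 the medians lie from -0.93 to -0.03, and with age from 0.55 to 1.54, all before the length and GC correction.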

How the data were processed

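Raw read counts per Ensembl gene were deposited by the authors as 1 table of 8 libraries, per the file headers. The submitters' processing notes name FastQC, cutadapt, Trimmomatic, HISAT2, featureCounts and edgeR, and the builds GRCm38 and GRCm39. Which build this table rests on, whether strand was used, and what was done with multiply mapping reads is not given in the sources used here. Groups and replicate numbers came from the sample titles.

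Differences were fitted by edgeR 4.0.16 (R 4.3.3) after filterByExpr and TMM scaling, tested two-sided by quasi-likelihood F and adjusted by Benjamini-Hochberg at 0.05, with only the libraries of the 2 groups compared. Standard errors are those implied by the F statistic. Intervals are 95% and use the test's degrees of freedom. The same script recovered known changes in simulated counts. These held comparatively few changed genes and no differences in composition, length or GC effects, so that they did not test the scaling or the correction. Lengths and GC content came from GENCODE release M 21 on GRCm38, which matched 97.3% of identifiers. For the corrected fit, mgcv 1.9.3 smoothed the log deviations of each library on both, and the smooth became the offset. DESeq2 1.42.0 was an alternative.

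The 9 genes, the lists and the tests were chosen with earlier results of these data known. From each pathway list the text names the largest rise and largest fall among called genes with a mean of at least 50 counts and no overlap between groups, and for each of the 9 genes the gene with the closest pattern. Some genes that the rule would name are not reported here. Cell type composition was described with 11 marker lists. Alternatives were RLE and upper-quartile scaling, other filters, DESeq2, all 8 libraries in 1 fit, a replicate block, the correction, thinned counts, removal of haemoglobin and mitochondrially encoded genes, and leaving out each library.

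Replicates of a group differed by more than sampling noise. Of the 6 pathway lists, 112 of 113 genes matched a row of the table.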

Additional observations from a re-analysis of the deposited data

How the results depend on the processing

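Of the recomputed counts of called genes (the 9 genes and the pathway total), 145 stayed within 1.5 times the reported one. The 3 others came from the length and GC correction: 42 pathway genes were called lower at day 15, against 68, and 1 of the 9 genes, Mapt, was called lower with age, against 0, both with the correction alone and with the replicate block added. Among single genes, Psen2, Mapt, Adam10 and Bace1 changed sign in 1 comparison each. Psen2 at day 15 was 0.14 with upper-quartile scaling, 0.20 with the correction and 0.20 with block and correction, 0.03 with thinned counts, 0.01 without WT replicate 1 and 0.04 without KO replicate 3 (-0.12 to 0.04 over all libraries left out), none called. Mapt with age was -0.02 with RLE scaling, with DESeq2 and with thinned counts, -0.01 with a filter at a mean of 10 counts, -0.23 with upper-quartile scaling, -0.06 without KO day 15 replicate 3 and -0.09 without week 70 replicate 2 (-0.09 to 0.13 over all libraries left out), none called, and -0.60 with the correction, called. Adam10 with age was -0.07 with upper-quartile scaling and 0.62 with block and correction, the latter called. Bace1 at week 70 against WT was 0.06 with the correction, 0.05 with block and correction, 0.07 without week 70 replicate 1 and, called, -0.38 without replicate 2. The cause of these changes was not tested. Leaving out each library gave 8 genes called lower at day 15 each time, 7 to 8 higher with age and 2 to 3 lower at week 70 against WT. For the pathway lists, recomputed after the data had been seen, it gave 65 to 67 lower at day 15, 75 to 80 higher with age and 20 to 26 lower at week 70 against WT. With 1 week 70 library left, it is assumed to vary like the other groups. With upper-quartile scaling the median over all genes went from 0.03 to 0.20 (log2) at day 15 and from -0.19 to -0.44 with age, and the share of calls that were higher from 48.1% to 60.8% and from 45.8% to 39.4%. Deviations from the group means correlated negatively between same-numbered WT and KO day 15 libraries (-0.16, -0.19 and -0.19). Between libraries of unlike number the correlations were positive (0.074 to 0.11). Since such deviations cancel out within a group, the same-numbered and unlike-numbered values are tied to each other and are not separate findings. Same-numbered libraries were not more alike in these deviations than the others. Whether they share a batch or litter was not tested. With the replicate block the calls were 8 lower at day 15, 7 higher with age, and 6 higher and 2 lower at week 70 against WT, and Mapt with age was -0.07, or -0.66 and called with the correction added.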
